A study of Homo sapiens with 10 samples.

Results

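The 58 genes described here lie on the outer short arm of human chromosome 2 (2p), between its end and 30 Mb, on either side of the oncogene MYCN. They are protein-coding genes given by symbol out of 58174 genes in the deposited table, and all 58 symbols were found on chromosome 2. MYCN, ODC1, RRM2 and other genes of the same stretch are not among them. The genes were chosen from the TPM values of TDP-43 N352S against wild-type cells, and of both against siControl cells, for a broad small rise. Values of those comparisons are therefore descriptions here and support nothing, while the knockdown of TDP-43 was not used for the choice.

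All libraries came from SH-SY5Y, an established human neuroblastoma line of noradrenergic character. The groups were cells homozygous for TDP-43 N352S (2 libraries), cells labelled TDP-43 wild type that stand beside them (2 libraries), cells given an siRNA pool against TDP-43 (siTDP-43, 3 libraries) and cells given a control pool (siControl, 3 libraries). N352S was introduced by genome editing, and both siRNA pools were used at 50 nM for 96 hours. TDP-43, encoded by TARDBP, is a nuclear RNA-binding protein that is altered in amyotrophic lateral sclerosis, and N352S is a substitution linked to that disease. The series' design text calls the libraries biological replicates. Neither it nor the labels name separate cultures, or say whether a genotype is 1 clone, so p-values measure only the spread between these libraries, which may be technical.

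The outer short arm of chromosome 2 is known in neuroblastoma because MYCN, a transcription factor of the MYC family, is amplified or gained there in aggressive tumours. Neighbours such as DDX1 and NBAS are often carried along, and gains of a large part of 2p, which also takes in the receptor kinase gene ALK, occur without focused amplification. SH-SY5Y is known as a line without MYCN amplification. The genes of such a stretch share a place and not a function, and DNA copy number was not analysed here.

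Expression is given as TPM (transcript abundance corrected for length), whose sum is fixed in every library, so sequencing depth is unknown. The fit covered the 17118 genes that averaged 1 TPM or more, among them 57 of the 58 members. Log2 fold changes are on the log2(TPM + 1) scale, and a gene was called at a Benjamini-Hochberg adjusted p under 0.05 in limma over all tested genes. POMC, the precursor of corticotropin, did not pass the filter, with 0 to 0.15 TPM in the 10 libraries. The other members averaged 5.24 to 510 TPM, with a median of 39.5 TPM against 23.3 TPM over all tested protein-coding genes. Their genomic span had a median of 77.6 kb, against 33.4 kb. The coefficient of variation between libraries of a group had a median over the members of 5.1% in N352S, 2.9% in wild-type, 3.69% in siTDP-43 and 5.19% in siControl libraries.

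TARDBP had 123 and 122 TPM in N352S libraries, against 196 and 205 TPM in wild-type libraries. It had 62.3, 63.1 and 67.7 TPM in siTDP-43 libraries, against 256 TPM in each siControl library. All 12 noradrenergic markers summed here, among them TH and DBH, averaged at least 1 TPM, and their summed level was 4874 to 5156 TPM in N352S, 5455 to 5541 in wild-type, 6090 to 6279 in siTDP-43 and 5385 to 5569 TPM in siControl libraries. These 12 did not move together. In N352S against wild type 1 was called higher and 6 lower, and in the knockdown 6 rose and 3 fell. Of 7 mesenchymal markers 5 averaged at least 1 TPM, and PRRX1 and FOSL1 did not. Their sum was 711 to 748 TPM in N352S, against 409 to 423 in wild-type, and 483 to 490 in siTDP-43, against 522 to 555 TPM in siControl libraries. The 5 did not move together: in N352S against wild type 1 was called higher and 1 lower, with a median log2 fold change of -0.05, and in the knockdown 1 rose and 1 fell, with a median of 0.20. The 4 Schwann and glial markers summed to 3.66 to 9.55 TPM over all libraries, with SOX10 and GFAP below 1 TPM. Leukocyte and endothelial markers summed to at most 2.85 TPM, and CD3E and CDH5 were listed at 0 in every library. The part of these markers in the results below was not tested, and in bulk libraries fewer cells of a type and less RNA per cell cannot be told apart.

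The genes with the clearest differences between the genotypes are shown with their promoters, to show whether a MYC family motif stands there, since MYCN lies between the members. The sequences are 250 bases before and 50 bases after the gene start, from RefSeq on GRCh38.p14, read 5′ to 3′ along the gene's strand. Capitals mark CACGTG, the E-box that MYC family proteins bind, which reads the same on both strands. HPCAL1 and ID2 had the largest differences between N352S and wild type. ADI1 and KLF11 are members called higher in the knockdown whose window holds the motif. KIDINS220 and SH3YL1, whose promoters also hold it and are not printed, each had a log2 fold change of -0.16 in the knockdown. KIDINS220 was called lower and SH3YL1 was not called (limma adjusted p = 0.048 and 0.13).
HPCAL1 (chr2:10302654-10302953, plus strand): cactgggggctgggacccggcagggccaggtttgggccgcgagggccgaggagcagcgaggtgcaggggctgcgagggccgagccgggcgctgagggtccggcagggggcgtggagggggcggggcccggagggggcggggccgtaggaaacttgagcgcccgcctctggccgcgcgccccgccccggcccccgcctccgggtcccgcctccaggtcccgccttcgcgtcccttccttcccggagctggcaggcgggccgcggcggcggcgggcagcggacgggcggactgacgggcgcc
ID2 (chr2:8681806-8682105, plus strand): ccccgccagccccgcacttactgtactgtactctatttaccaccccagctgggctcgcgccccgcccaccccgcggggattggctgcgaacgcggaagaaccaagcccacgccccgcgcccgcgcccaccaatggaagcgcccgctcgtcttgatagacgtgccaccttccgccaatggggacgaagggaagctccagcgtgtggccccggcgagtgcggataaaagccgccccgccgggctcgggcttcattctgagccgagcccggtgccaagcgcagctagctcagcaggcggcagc
ADI1 (chr2:3519482-3519781, minus strand): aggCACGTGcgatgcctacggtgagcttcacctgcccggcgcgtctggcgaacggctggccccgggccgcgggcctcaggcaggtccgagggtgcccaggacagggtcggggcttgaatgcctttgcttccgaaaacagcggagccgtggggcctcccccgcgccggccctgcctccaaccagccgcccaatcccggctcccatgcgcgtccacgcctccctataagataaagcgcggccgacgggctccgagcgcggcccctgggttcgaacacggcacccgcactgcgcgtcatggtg
KLF11 (chr2:10043579-10043878, plus strand): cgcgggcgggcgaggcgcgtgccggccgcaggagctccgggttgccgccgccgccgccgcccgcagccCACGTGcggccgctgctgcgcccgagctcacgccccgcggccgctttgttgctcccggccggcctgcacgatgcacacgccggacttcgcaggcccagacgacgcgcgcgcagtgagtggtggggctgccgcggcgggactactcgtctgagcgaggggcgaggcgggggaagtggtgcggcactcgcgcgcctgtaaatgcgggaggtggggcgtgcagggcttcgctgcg

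The motif was found in 4 of 54 member promoters with an entry (7.41%), namely those of SH3YL1, ADI1, KIDINS220 and KLF11. Over all 35116 promoters of the same length, 2548 held it (7.26%). Its absence from the windows of HPCAL1 and ID2 says only that these letters are not there. Member promoters had a median GC content of 69.7%, against 58.7% over all promoters.

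**Figure D1:**
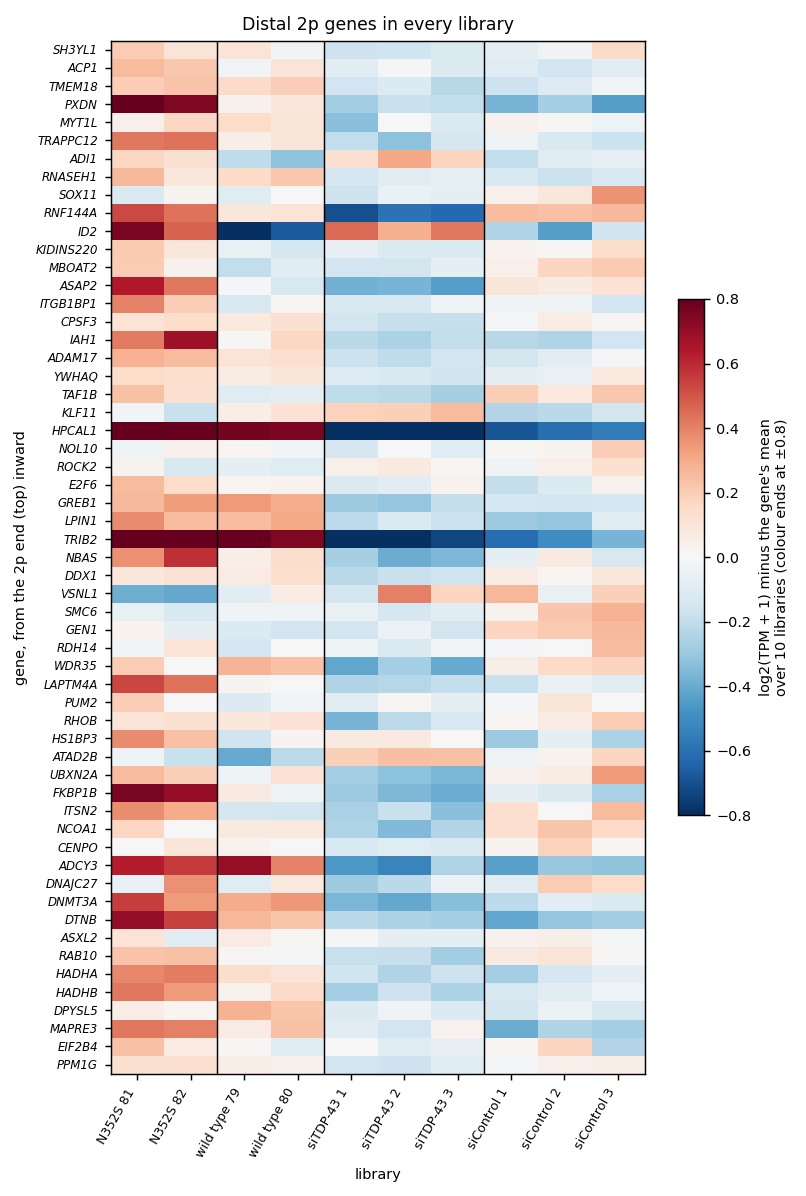
Level of the 57 tested members (rows, in order from the 2p end inward) in the 10 libraries (columns), as log2(TPM + 1) minus the gene's mean over all libraries, from blue (lower) to red (higher). Red is frequent in the 2 N352S columns, and HPCAL1 and TRIB2 are high in all 4 genotype libraries.

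Most members stood higher in N352S than in wild-type cells, by little. Of the 57, 47 had a log2 fold change above 0, the median was 0.16 and the range was -0.39 to 1.39, while the median over all tested genes was -0.03. A total of 23 members was called higher, where 8.28% of all tested genes were, and 1 was called lower, where 11.9% were. In 33 members both N352S libraries lay above both wild-type libraries (25.4% of all tested genes) and in 5 they lay below (34.7%). Without N352S replicate 81 the count of higher members was 15, and without wild type replicate 79 it was 14. Summed over the 58 genes, members took 0.419 and 0.433% of all TPM in N352S libraries, against 0.354 and 0.36% in wild-type libraries.

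ID2 and HPCAL1 led the differences. ID2 (ENSG00000115738, GRCh38 chromosome 2, 8678845 to 8684453, plus strand), which encodes an inhibitor of basic helix-loop-helix transcription factors that restrains differentiation, had 176 and 143 TPM in N352S libraries, against 55.5 and 64.8 TPM in wild-type libraries (log2 1.39). HPCAL1 (ENSG00000115756, 10302889 to 10427617, plus strand), a neuronal calcium sensor of the visinin family, had 228 and 224 TPM in N352S libraries, against 129 and 128 TPM in wild-type libraries (log2 0.81). The groups did not overlap in either gene, and the N352S libraries of ID2 were farther apart than those of HPCAL1. ID2 overlaps its antisense gene ID2-AS1, which averaged 4.79 TPM.

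Next came genes of the matrix, of calcium release and of membrane traffic. PXDN (1631887 to 1744852, minus strand), peroxidasin, which cross-links collagen IV, had 191 and 177 TPM in N352S libraries, against 107 and 112 TPM in wild-type libraries (log2 0.74). FKBP1B, a binding partner of ryanodine receptors, had 91.5 and 88.1 TPM in N352S libraries, against 56.5 and 52.3 TPM in wild-type libraries (log2 0.71). ASAP2, a GTPase-activating protein for Arf proteins, had 60.4 and 51.8 TPM in N352S libraries, against 38 and 35.1 TPM in wild-type libraries (log2 0.60). In each of the 3 the lower N352S library was above the higher wild-type library.

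LAPTM4A, a membrane protein of lysosomes and endosomes, had 144 and 134 TPM in N352S libraries, against 100.1 and 98.5 TPM in wild-type libraries (log2 0.48). ITSN2, an endocytic scaffold, had 14.1 and 13.3 TPM in N352S libraries, against 9.64 and 9.53 TPM in wild-type libraries (log2 0.47). IAH1, an esterase of the isoamyl acetate hydrolase family, had 111 and 133 TPM in N352S libraries, against 83.3 and 92.7 TPM in wild-type libraries (log2 0.46). IAH1 overlaps ADAM17 on the opposite strand, and ASAP2 overlaps ITGB1BP1, so reads of these pairs may not be separated. Strand-specific counting is not stated, and 20 of the 57 members overlap an opposite-strand gene of at least 1 TPM.

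The 5 lowest differences were small. DPYSL5, a collapsin response mediator of growth cones, was the member called lower, with 120.4 and 117 TPM in N352S libraries, against 141 and 135 TPM in wild-type libraries (log2 -0.21). It was not called without N352S replicate 82 or without wild type replicate 79. VSNL1, visinin-like protein and a relative of HPCAL1, had 3.68 and 3.63 TPM in N352S libraries, against 4.8 and 5.4 TPM in wild-type libraries (log2 -0.39), and was not called. KLF11, a zinc finger transcription factor, had 5.21 and 4.58 TPM in N352S libraries, against 5.54 and 5.84 TPM in wild-type libraries (log2 -0.18). WDR35, a subunit of the intraflagellar transport complex of cilia, had 26.4 and 22.8 TPM in N352S libraries, against 27.8 and 27 TPM in wild-type libraries (log2 -0.15). SMC6, of a chromatin complex in DNA repair, had 33.2 and 31.8 TPM in N352S libraries, against 33.8 and 33.7 TPM in wild-type libraries (log2 -0.05). In all 5 genes, which were taken for their low values, both N352S libraries lay below both wild-type libraries (34.7% of all tested genes). HPCAL1 and VSNL1 thus stood on opposite sides of 0 within 1 protein family.

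The members nearest to MYCN differed from each other. DDX1, a DEAD-box RNA helicase whose gene lies 0.35 Mb from MYCN toward the 2p end, had 131 and 133 TPM in N352S libraries, against 129 and 135 TPM in wild-type libraries (log2 0.00), and the groups overlapped. NBAS (15166909 to 15561330, minus strand), which takes part in transport from the Golgi to the endoplasmic reticulum, lies on the same side. Its end farther from MYCN is 0.77 Mb from the MYCN start, and its other end is nearer. NBAS had 18.1 and 21.2 TPM in N352S libraries, against 14.3 and 15.3 TPM in wild-type libraries (log2 0.38). Its N352S libraries lay above its wild-type libraries, and its call was lost without N352S replicate 82, without wild type replicate 79 or without wild type replicate 80. MYCN itself (15940564 to 15947007, plus strand) was low, at 5.11 and 5.42 TPM in N352S libraries, against 4.32 and 4.12 TPM in wild-type libraries. The log2 fold change of MYCN was 0.26, and it was not called (limma adjusted p = 0.057).

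**Figure D2:**
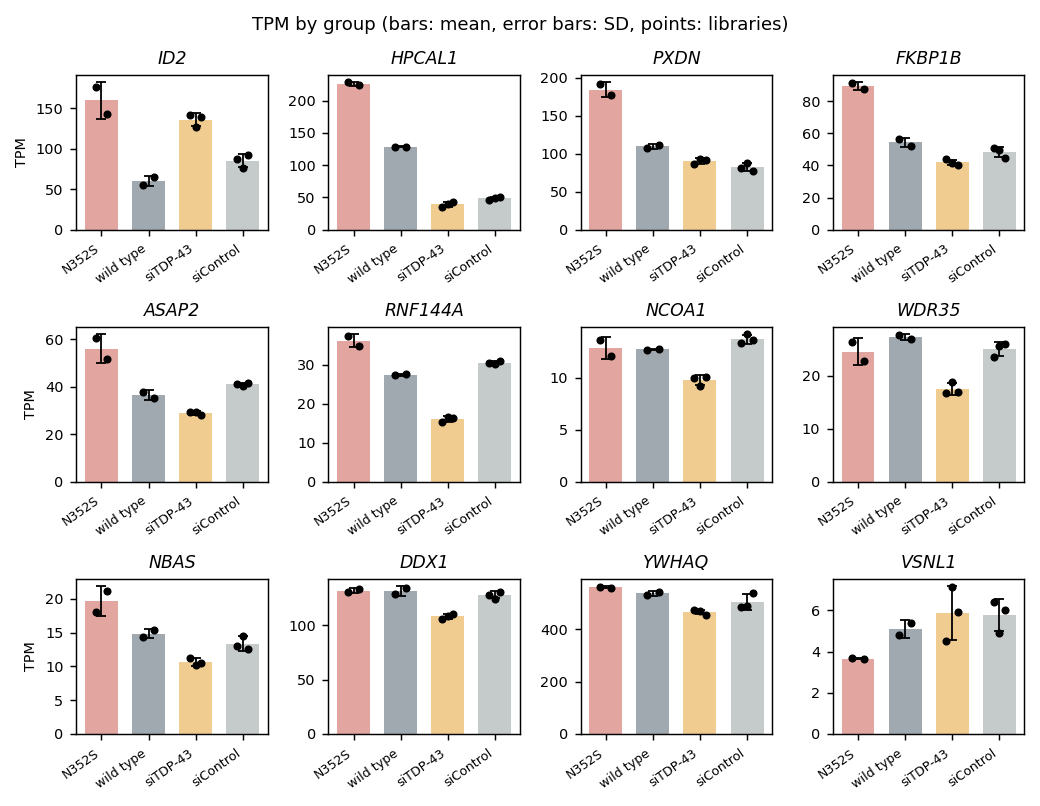
TPM of 12 members in N352S (n = 2), wild-type (n = 2), siTDP-43 (n = 3) and siControl (n = 3) libraries, 1 point a library, where bars give the group mean and whiskers its SD, and axes start at 0. HPCAL1 stands at 226 TPM in N352S and 128 in wild-type libraries, above its levels in both siRNA groups, while DDX1 is lower in siTDP-43 libraries than in the other groups.

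The most abundant members differed little between the genotypes. YWHAQ, a 14-3-3 adaptor protein, had 563 and 558 TPM in N352S libraries, against 531 and 544 TPM in wild-type libraries (log2 0.06). PPM1G, a protein phosphatase that acts on splicing factors, had 202 and 203 TPM in N352S libraries, against 193 and 190.4 TPM in wild-type libraries (log2 0.08). HADHA, a subunit of the mitochondrial trifunctional protein of fatty acid oxidation, had 187 and 189.8 TPM in N352S libraries, against 158 and 153 TPM in wild-type libraries (log2 0.27). ACP1, a low-molecular-weight tyrosine phosphatase, had 174 and 169 TPM in N352S libraries, against 143 and 156 TPM in wild-type libraries (log2 0.20). N352S libraries lay above wild-type libraries in all 4 genes, as they did in 25.4% of all tested genes, and YWHAQ and PPM1G were not called. HADHA and ACP1 were called, and each lost the call without N352S replicate 81, without N352S replicate 82 or without wild type replicate 79. HADHA also lost it without wild type replicate 80.

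Over all tested genes, 8.28% were called higher in N352S against wild type and 11.9% lower. By role, members of membrane traffic had a median log2 fold change of 0.36 in this comparison (10 genes, 7 called higher). Those of metabolism and other functions had 0.27 (9 genes, 6 called higher). Signalling and cytoskeleton genes had a median of 0.20 (17 genes, 8 called higher and 1 lower). Transcription and chromatin genes had a median of 0.01 (11 genes), with 2 called higher, ID2 and TAF1B, which encodes a subunit of the RNA polymerase I factor SL1. The call of TAF1B was lost without N352S replicate 81, without wild type replicate 79 or without wild type replicate 80. The 6 genes of RNA processing and translation, among them the 3′-end endonuclease CPSF3 and PUM2, had a median of 0.05, and the 4 of genome maintenance, among them the Holliday junction nuclease GEN1 and RNASEH1 had 0.01. By level, the 29 more abundant members had a median of 0.23 with 16 called higher, and the 28 less abundant 0.11 with 7 called higher.

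Most other genes of the stretch stood higher too. The stretch itself was picked for a broad rise in this comparison, so their values are a description and support nothing. Of the 68 other protein-coding genes tested between the 2p end and 30 Mb, 55 had a log2 fold change above 0, and the 68 had a median log2 fold change of 0.24 in N352S against wild type, with 26 called higher and 2 lower. All 125 tested there had a median of 0.20. Over all tested genes of the genome 8.28% were called higher and 11.9% lower, with a median of -0.03. Genes from 30 to 40 Mb had a median of 0.15 (38 genes) and those from 40 to 50 Mb 0.11 (36 genes). From 50 to 60 Mb it was -0.06 (18 genes) and on the long arm -0.04 (493 genes). Within the members, the 20 in the first 10 Mb had a median of 0.26 (12 called higher), the 15 from 10 to 20 Mb 0.04 (3 called higher) and the 22 from 20 to 30 Mb 0.19 (8 called higher).

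Where the stretch was cut, the values on either side overlapped. EIF2B4 and PPM1G, the innermost members, had log2 fold changes of 0.20 and 0.08. NRBP1 and KRTCAP3, the next tested genes inward, had 0.11 and -0.04, and ALK, the last tested gene before 30 Mb, had 0.44. Beyond 30 Mb, YPEL5, LBH and LCLAT1 had 0.53, 0.62 and -0.01.

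**Figure D3:**
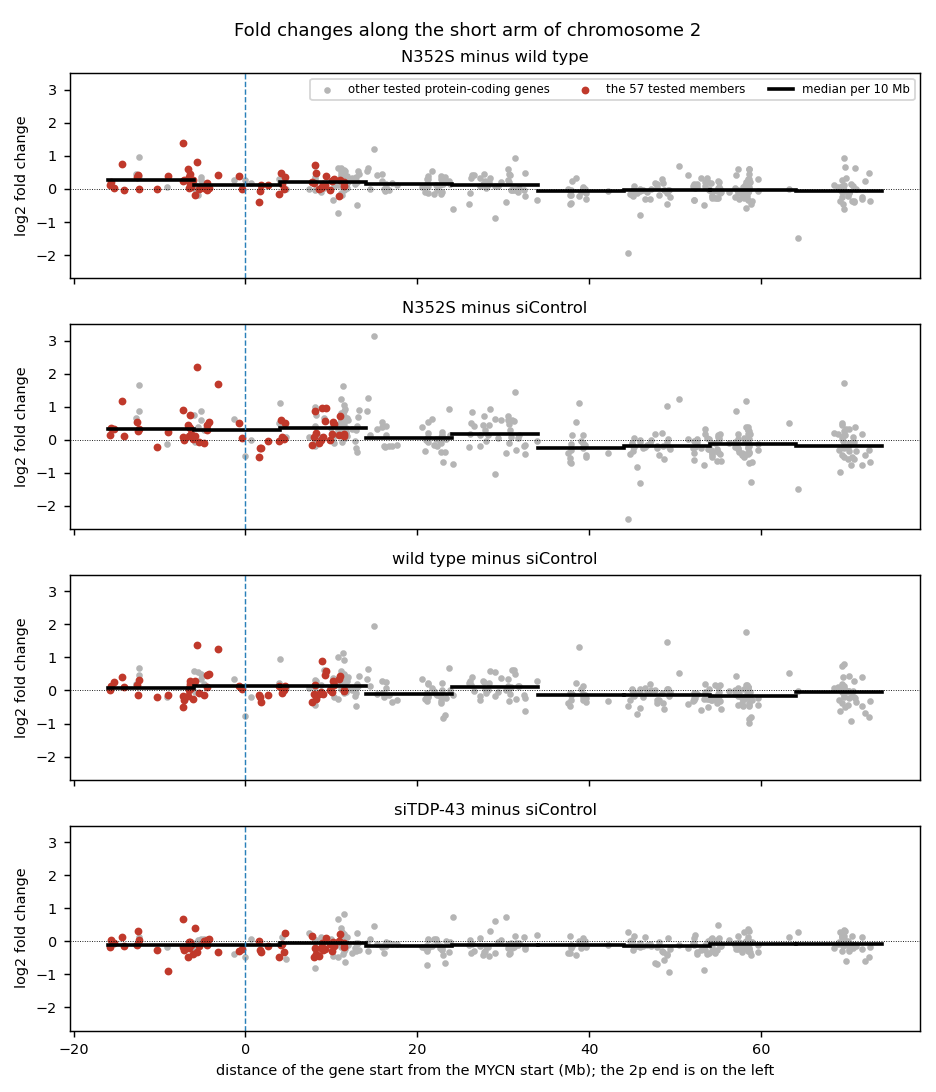
Log2 fold change of each tested protein-coding gene of the short arm of chromosome 2 and the start of its long arm (points; the 57 members in red) against the distance of its start from that of MYCN (dashed line), for 4 comparisons, with the median of each 10-Mb window of at least 15 genes as a black line. The start is the lowest coordinate of a gene, whatever its strand. In N352S minus wild type the first 5 windows have medians of 0.11 to 0.27 and the sixth -0.06, and in the knockdown the first 3 lie at -0.11, -0.11 and -0.06.

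Over the genome, 270 windows of 10 Mb held at least 15 tested protein-coding genes. Their medians in N352S against wild type lay between -0.94 and 0.27, and 12 windows reached 0.1. The first 5 windows of chromosome 2 were among these 12, with medians of 0.27, 0.11, 0.22, 0.15 and 0.11 and the ranks 1, 8, 3, 6 and 8 from the highest, ties sharing a rank. The first 3 hold the members, which were chosen for a rise in this comparison, so the ranks of these windows support nothing. The rest of the 12 lay on chromosomes 1, 3, 4 and 7. Among them, the window from 160 to 170 Mb of chromosome 4 had a median of 0.26 and rank 2. The lowest, at -0.94, was the first window of chromosome 1, beside TARDBP. Genes from the end of 1p to TARDBP took 0.488 to 0.567% of all TPM in N352S libraries, against 0.798 to 0.815% in wild-type libraries. With these genes left out and TPM rescaled, the members again had a median of 0.16, with 23 called higher and 1 lower.

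**Figure D4:**
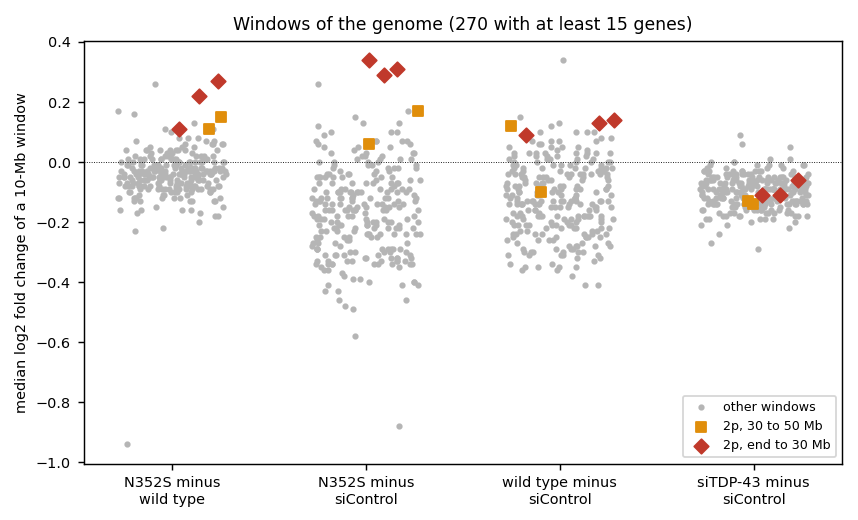
Median log2 fold change of the protein-coding genes in each of 270 windows of 10 Mb (points) in 4 comparisons, with the first 3 windows of chromosome 2 as red diamonds and the next 2 as orange squares. The red diamonds lie at 0.27, 0.11 and 0.22 in N352S minus wild type and within the range of the other windows in the knockdown.

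Against siControl cells, the N352S libraries stood higher in more members than the wild-type libraries did. These comparisons share the siControl libraries and set cells with and without transfected siRNA against each other, so that genotype and treatment cannot be told apart. In N352S minus siControl the members had a median of 0.17, against -0.10 over all tested genes, and 0.40 over the 68 other genes of the stretch, with 32 members called higher (19.6% of all tested genes) and 3 lower (33.6%), 1 without N352S replicate 82. In 34 members both N352S libraries lay above all siControl libraries (25.6% of all tested genes) and in 4 below (41.2%). In wild type minus siControl the median was 0.04, against -0.06 over all tested genes and 0.17 over those 68, with 19 members called higher (14.8%) and 8 lower (24.8%). Without wild type replicate 79 that median was 0.09 and 1 member was lower, and 5 were lower without wild type replicate 80 or without siControl replicate 3. With median-of-ratios scaling, which set the median of all tested genes to 0.00, the members had 0.28 in N352S and 0.11 in wild-type cells.

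HPCAL1, TRIB2 and ADCY3 had the largest differences of the members in wild-type cells against siControl, and HPCAL1 and TRIB2 also in N352S cells. HPCAL1 had log2 fold changes of 2.19 in N352S and 1.37 in wild-type cells against siControl, where it had 46.6, 49.3 and 51 TPM. TRIB2, a pseudokinase of the Tribbles family, had 109 TPM in each N352S library and 82.4 and 79.5 TPM in wild-type libraries, against 30.3, 32.9 and 36.1 TPM in siControl libraries (log2 1.69 and 1.27). ADCY3, an adenylyl cyclase of neuronal cilia, had 28.5 and 27.1 TPM in N352S and 29.9 and 24.1 TPM in wild-type libraries, against 13.1, 14.5 and 14.2 TPM in siControl libraries (log2 0.95 and 0.90), and in N352S cells PXDN and DTNB had larger differences, of 1.16 and 0.96. For TRIB2 and HPCAL1 the 2 genotypes did not overlap, and for ADCY3 they did. TRIB2, ADCY3 and DTNB are named here after their values were seen.

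ID2, ASAP2 and TAF1B were highest on average in N352S cells but stood lower in wild-type than in siControl cells. They are examples, and other members, among them RNF144A and ITSN2, had the same order. In wild type minus siControl, ID2, TAF1B, RNF144A and ITSN2 were called lower (log2 -0.49, -0.25, -0.15 and -0.27). ASAP2 was not called (log2 -0.17). Both N352S libraries of ID2 and of ASAP2 lay above all siControl libraries and both wild-type libraries below them. TAF1B had 28.9 and 26.9 TPM in N352S and 22.8 and 23.1 TPM in wild-type libraries, against 28.2, 25.9 and 28.5 TPM in siControl libraries. For TAF1B the N352S and siControl libraries overlapped, with the wild-type libraries lower.

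In the knockdown of TDP-43, the comparison that the choice of genes did not use, more members fell than rose. Of the 57, 23 fell (40.4%, where 19.8% of all tested genes did), 5 rose (8.77%, against 6.19%) and 29 were not called. Of the 68 unchosen protein-coding genes of the same stretch, 12 fell (17.6%) and 9 rose (13.2%), with a median log2 fold change of -0.04, and over all 125 genes of the stretch the median was -0.08. The 57 members had a median log2 fold change of -0.14, with a range of -0.89 to 0.67, against a median of -0.08 over all tested genes. In 32 members all 3 siTDP-43 libraries lay below all 3 siControl libraries (31.7% of all tested genes) and in 7 above (11.9%). The siControl libraries also entered the choice of the members, in the comparisons of the genotype groups with siControl. Lower genes made up 82.1% of the members called, and most calls over all tested genes were lower too (3389 lower and 1059 higher). With median-of-ratios scaling or quantile normalization 15 members fell and 8 rose (65.2% lower), where 12.1 and 11.7% of all tested genes fell and 11.4 and 11.2% rose. The count of members that rose was 3 without siControl replicate 1, siControl replicate 3, siTDP-43 replicate 1 or siTDP-43 replicate 3.

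RNF144A (ENSG00000151692, 6917392 to 7068286, plus strand), an E3 ubiquitin ligase that targets the DNA repair kinase DNA-PKcs, changed with the smallest p. It had 15.3, 16.6 and 16.2 TPM in siTDP-43 libraries, against 30.5, 30.2 and 30.8 TPM in siControl libraries. The groups did not overlap, with SDs of 0.66 and 0.29 TPM (log2 -0.89 ± 0.05, SE; limma adjusted p = 8.1e-06). Between the genotypes it had 37.3 and 34.9 TPM in N352S libraries, against 27.2 and 27.6 TPM in wild-type libraries. RNF144A overlaps RNF144A-AS1 on the opposite strand, which averaged 8.7 TPM.

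ASAP2 fell to 29.2, 29.4 and 28.1 TPM in siTDP-43 libraries, against 41.2, 40.5 and 41.6 TPM in siControl libraries (log2 -0.49 ± 0.06; limma adjusted p = 0.00055). WDR35 fell to 16.8, 18.8 and 17 TPM in siTDP-43 libraries, against 23.6, 25.6 and 26 TPM in siControl libraries (log2 -0.49 ± 0.07; limma adjusted p = 0.0012). NCOA1, a coactivator of nuclear receptors, fell to 10, 9.19 and 10.1 TPM in siTDP-43 libraries, against 13.3, 14.2 and 13.6 TPM in siControl libraries (log2 -0.45 ± 0.06; limma adjusted p = 0.0011). In all 3 genes the highest siTDP-43 library was below the lowest siControl library.

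TAF1B fell to 21.1, 20.9 and 20.2 TPM in siTDP-43 libraries, against 28.2, 25.9 and 28.5 TPM in siControl libraries (log2 -0.39 ± 0.05; limma adjusted p = 0.00086). RAB10, a small GTPase of exocytic transport, fell to 84.4, 84.2 and 78.8 TPM in siTDP-43 libraries, against 101, 103 and 96.6 TPM in siControl libraries (log2 -0.28 ± 0.04; limma adjusted p = 0.0012). DDX1, whose genotype libraries overlapped, fell to 106, 109 and 110.1 TPM in siTDP-43 libraries, against 128, 125 and 131 TPM in siControl libraries (log2 -0.24 ± 0.03; limma adjusted p = 0.0013). The groups did not overlap in these genes. NBAS had 11.3, 10.2 and 10.5 TPM in siTDP-43 libraries, against 13, 14.5 and 12.5 TPM in siControl libraries (log2 -0.30; limma adjusted p = 0.024). The call of NBAS was lost in 7 of 22 alternatives, among them without siControl replicate 2, siTDP-43 replicate 2 or siTDP-43 replicate 3 (adjusted p of 0.051 to 0.14 over the 7).

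Of the 8 members highest in N352S against wild type, ASAP2 (given above), HPCAL1, ITSN2 and FKBP1B fell in the knockdown and ID2 rose. HPCAL1 had 35.2, 39 and 43 TPM in siTDP-43 libraries, against 46.6, 49.3 and 51 TPM in siControl libraries (log2 -0.32; limma adjusted p = 0.0076). ITSN2 had 8.76, 9.33 and 8.24 TPM in siTDP-43 libraries, against 11.8, 10.7 and 12.9 TPM in siControl libraries (log2 -0.39; limma adjusted p = 0.0064). ID2 had 142, 126 and 139 TPM in siTDP-43 libraries, against 87.2, 75.8 and 92.3 TPM in siControl libraries (log2 0.67 ± 0.10; limma adjusted p = 0.0016). No siTDP-43 library of ID2 overlapped the siControl libraries, and the siTDP-43 libraries lay below both N352S libraries. FKBP1B had a log2 fold change of -0.19 (limma adjusted p = 0.034), which 10 of 22 alternatives did not call, among them the fits without siControl replicate 1, siControl replicate 2, siTDP-43 replicate 2 or siTDP-43 replicate 3 (adjusted p of 0.056 to 0.25 over the 10). PXDN, IAH1 and LAPTM4A were not called (log2 0.14, -0.02 and -0.11). LAPTM4A was called without siControl replicate 1 (adjusted p = 0.042) and PXDN as higher without siControl replicate 2 (adjusted p = 0.041) and in 3 other alternatives, both scalings among them (adjusted p of 0.016 to 0.044 over the 4).

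Besides ID2, the members that rose were KLF11, ADI1, HS1BP3 and MAPRE3. KLF11 had 6.17, 6.22 and 6.54 TPM in siTDP-43 libraries, against 4.37, 4.44 and 4.7 TPM in siControl libraries (log2 0.41 ± 0.07; limma adjusted p = 0.0041). ADI1, an enzyme of methionine salvage, had 39.9, 45.6 and 41.4 TPM in siTDP-43 libraries, against 31.9, 34.2 and 35.1 TPM in siControl libraries (log2 0.32; limma adjusted p = 0.0057). HS1BP3 and MAPRE3, the microtubule end-binding protein EB3, had log2 fold changes of 0.25 and 0.23 (limma adjusted p = 0.045 and 0.037). ADI1, HS1BP3 and MAPRE3 are named because the count is small, after their values were seen. SMC6 fell to 33.1, 31.4 and 32.4 TPM in siTDP-43 libraries, against 35.3, 40.4 and 42.2 TPM in siControl libraries (limma adjusted p = 0.014), but its adjusted p was 0.05 and it was not called without siTDP-43 replicate 2.

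By role, where 19.8% of all tested genes fell and 6.19% rose, the 10 members of membrane traffic had a median log2 fold change of -0.27 in the knockdown (5 fell, 1 rose), and the 4 of genome maintenance -0.23 (3 fell). RNA processing and translation genes had -0.16 (6 genes, 3 fell), transcription and chromatin genes -0.12 (11 genes, 4 fell and 2 rose), and signalling and cytoskeleton genes -0.10 (17 genes, 7 fell and 1 rose). Metabolism and other functions had -0.03 (9 genes, 1 fell and 1 rose). Of the abundant members, PPM1G fell to 167, 165 and 173 TPM in siTDP-43 libraries, against 184, 191 and 192 TPM in siControl libraries (limma adjusted p = 0.0057), a call lost with median-of-ratios scaling and quantile normalization (adjusted p = 0.085 and 0.13). YWHAQ, HADHA and ACP1 were not called.

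**Figure D5:**
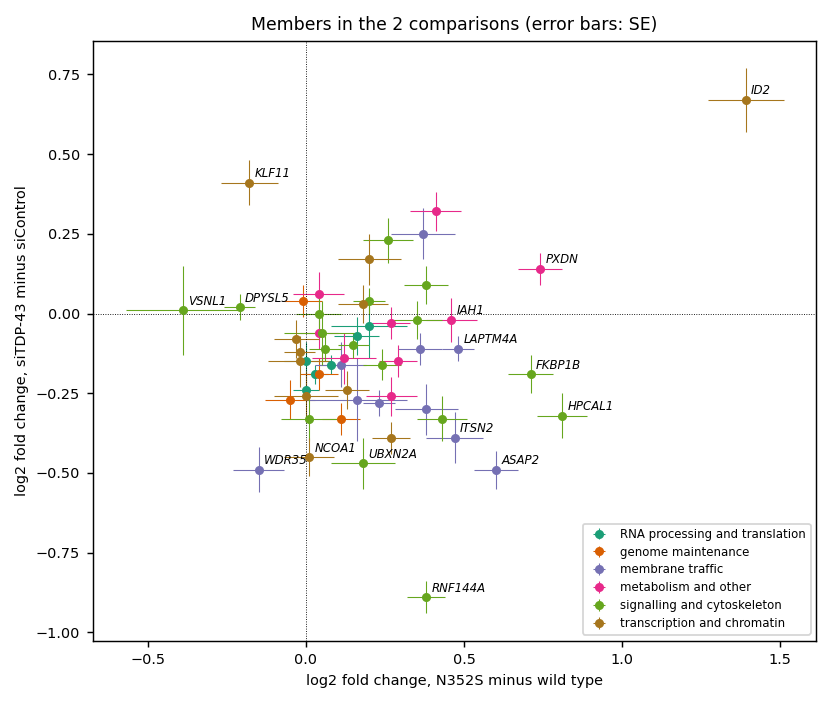
Log2 fold changes of the 57 tested members (points, coloured by role; error bars are SEs of the fit) in N352S minus wild type (horizontal axis) and siTDP-43 minus siControl (vertical axis). Most points lie right of 0 and below 0, ID2 lies at 1.39 and 0.67, and RNF144A at 0.38 and -0.89.

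Of the 23 members called higher in N352S cells, 11 fell in the knockdown (47.8% of either list, since both hold 23 members), 3 rose and 9 were not called. Of the 33 members not called between the genotypes, 12 fell in the knockdown (36.4%). Over all tested genes 19.8% fell, and over the protein-coding ones 23.9%. These comparisons share no library, but the fit gave both the same estimate of a gene's spread. Their calls are therefore not independent, and the overlap supports nothing.

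Around the members, ALK, a receptor kinase of neuroblastoma at 29192774 to 29921566, had 68.7 and 66.6 TPM in N352S libraries, against 48.5 and 50.4 TPM in wild-type libraries. It had 30.3, 30.9 and 28.7 TPM in siTDP-43 libraries, against 36.5, 37.8 and 33.9 TPM in siControl libraries. MYCN had 5.33, 5.27 and 5.42 TPM in siTDP-43 libraries, against 7.96, 7.43 and 8.26 TPM in siControl libraries (log2 -0.49; limma adjusted p = 0.0012), so that its siControl level was the highest of the 4 groups. ODC1, the first enzyme of polyamine synthesis and a MYC target, had 177 and 187 TPM in N352S libraries, against 206 TPM in each wild-type library. RRM2, a subunit of ribonucleotide reductase, had 153 and 165 TPM in N352S libraries, against 157 and 163 TPM in wild-type libraries. Of the 20 listed genes of the stretch that are not members, 13 were tested, and in N352S against wild type 6 were called higher and 1 lower (median 0.24). In the knockdown 2 of the 13 rose and 2 fell. Over all tested genes 8.28% were called higher and 11.9% lower between the genotypes, and 6.19% rose and 19.8% fell in the knockdown.

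Listed targets of MYC and MYCN are given beside the stretch, and the part of MYCN in any of these values was not tested. Of 30 tested, 15 were called lower in N352S against wild type (50%, where 11.9% of all tested genes were), with a median log2 fold change of -0.21 against -0.03 over all tested genes. In the knockdown 7 fell (23.3%, against 19.8% of all tested genes) and 2 rose (6.67%, against 6.19%), with a median of -0.06 against -0.08, which is near the background.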

How the data were processed

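Total RNA taken up in Trizol was sequenced from TruSeq libraries, per the labels' protocols. The authors deposited TPM per gene; the submitters' processing notes name STAR, RSEM and hg38, and the sources used here give no versions or annotation. TPM keep no depth, so no counting interval or floor can be given, and a rise of abundant transcripts lowers all others. Gene positions came from GENCODE 29 on GRCh38, which holds 99.4% of the gene identifiers, and arms were split at approximate centromere positions. Group means of all 10 libraries were fitted on log2(TPM + 1), computed from the deposited TPM, with limma 3.58.1 under R 4.3.3 (eBayes with a trend, 6 residual degrees of freedom), which assumes that the genotype pairs vary like the siRNA libraries. The fit was tested on simulated data. Values after ± are SEs of log2 fold changes.

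The members and lists were chosen with earlier results of these data known, and the 10-Mb windows after the data were seen. Members named with values are the 8 highest and 5 lowest in N352S minus wild type, the 6 smallest p-values of the knockdown, the 5 most abundant, DDX1 and NBAS. Alternatives changed the pseudocount, filter, scaling, variance model and the libraries fitted. The siRNA libraries are numbered 1 to 3 in both groups, and deviations from group means correlated at 0.34, 0.14 and 0.2 between equal numbers. The numbers may therefore pair the libraries. The main fit, which gave the p-values of the knockdown, did not use such a pairing, and a blocked fit was an alternative. Figures used matplotlib 3.10.9. Some listed marker genes are not reported here and were left out of the marker sums.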

Additional observations from a re-analysis of the deposited data

How the results depend on the processing

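In all 21 alternatives for N352S minus wild type, and all 22 for the knockdown, the median of the members kept its sign. Counts and medians not given here or in the results moved by no more than 1.5 times or the spread between libraries. In N352S minus wild type, a fit of only those groups called 13 members higher and 0 lower. In the knockdown, median-of-ratios scaling and quantile normalization each called 8 members higher and 15 lower, with medians of -0.06 and -0.05, while eBayes without a trend and no filter on low TPM each called 3 higher. The replicate block called 4 higher and 22 lower in the knockdown and moved no count by over 1.5 times. In wild type minus siControl, 5 members were lower in a fit of only those groups, with median-of-ratios scaling and with no filter, and the medians were 0.11 with median-of-ratios scaling and 0.10 with quantile normalization. In N352S minus siControl those scalings gave 0.28 and 0.27. Leaving out 1 library in turn gave 14 to 24 members higher, 0 to 1 lower and medians of 0.13 to 0.22 in N352S minus wild type. It gave 3 to 5 higher, 16 to 22 lower and medians of -0.15 to -0.12 in the knockdown. In N352S minus siControl it gave 26 to 32 higher, 1 to 3 lower and 0.17 to 0.24, and in wild type minus siControl 13 to 19 higher, 1 to 9 lower and 0.04 to 0.09. Where a group is left with 1 library, that library is assumed to vary like the other groups. Depth is unknown, so its limits cannot be given.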
